A study of Mus musculus with 2 samples.

Results

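The urea cycle and ammonia handling enzymes were 9 genes, taken by name in pathway order from the gene tables (Nags, Cps1, Otc, Ass1, Asl, Arg1, Arg2, Glul and Glud1), out of 43346 mouse genes measured. All 9 symbols matched a gene identifier of the tables. Total RNA-seq had been done on embryonic liver of the B6NCrl mouse strain at day 11.5, in 2 libraries of a single group, biological replicates 1 and 2. Each library was made from 10 ng of RNA of pooled male and female embryos: 109 embryos in replicate 1, and an unstated number in replicate 2. The embryos carried no labelled allele or treatment, and no second stage or control was analysed here, so levels are described and no condition is tested. Whole liver was used, so fewer cells of a type and less RNA per cell cannot be told apart.

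The urea cycle turns ammonia, the toxic product of amino acid breakdown, into urea, and in the adult it is a task of hepatocytes around the portal vein. In the mitochondrion, Nags makes N-acetylglutamate, the activator that Cps1 needs to join ammonia and bicarbonate into carbamoyl phosphate, and Otc passes the carbamoyl group to ornithine to give citrulline. In the cytosol, Ass1 joins citrulline to aspartate, Asl splits the product into arginine and fumarate, and Arg1 cleaves arginine into urea and ornithine. Arg2 is a mitochondrial arginase found mainly outside the cycle. Glul, glutamine synthetase, fixes ammonia onto glutamate, in adult liver in the cells next to the central vein, and Glud1, a mitochondrial glutamate dehydrogenase, releases or takes up ammonia at glutamate.

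Promoter sequence was at hand for 5 of the 9 enzymes, as windows from 250 bases before to 50 bases after the gene start (RefSeq, build GRCm38.p6, on the strand of the gene). The windows of Glud1, Ass1 and Otc are shown because they span the range of CG content among these 5 enzymes. They lie at chr14:34310477-34310776, chr2:31470020-31470319 and chrX:10252055-10252354, all on the plus strand, and capitals mark each CG dinucleotide.
Glud1: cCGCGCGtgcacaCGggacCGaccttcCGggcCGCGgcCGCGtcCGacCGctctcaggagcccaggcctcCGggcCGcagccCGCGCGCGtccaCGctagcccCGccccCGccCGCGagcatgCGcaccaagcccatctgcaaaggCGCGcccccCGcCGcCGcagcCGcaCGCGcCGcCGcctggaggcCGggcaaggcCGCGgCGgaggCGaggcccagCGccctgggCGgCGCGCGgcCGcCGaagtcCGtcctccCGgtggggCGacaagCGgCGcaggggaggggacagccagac
Ass1: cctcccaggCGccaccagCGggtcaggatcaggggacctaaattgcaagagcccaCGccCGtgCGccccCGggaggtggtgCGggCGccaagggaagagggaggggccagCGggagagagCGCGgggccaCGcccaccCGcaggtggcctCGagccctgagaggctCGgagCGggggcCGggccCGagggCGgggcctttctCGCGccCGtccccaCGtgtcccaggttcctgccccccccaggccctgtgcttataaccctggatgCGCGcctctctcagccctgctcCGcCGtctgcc
Otc: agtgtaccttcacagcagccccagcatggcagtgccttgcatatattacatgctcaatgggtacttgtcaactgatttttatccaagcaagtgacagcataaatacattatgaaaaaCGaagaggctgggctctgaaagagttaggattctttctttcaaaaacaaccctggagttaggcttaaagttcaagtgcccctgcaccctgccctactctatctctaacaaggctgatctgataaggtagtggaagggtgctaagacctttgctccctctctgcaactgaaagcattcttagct

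The Glud1 window held 51 CG dinucleotides, more than 99.3% of the 32851 windows of the table, whose median was 7. The Ass1 window held 27, the Glul window 17 and the Nags window 14, while the Otc window held 1, and 5.4% of windows held fewer. The letters GGGCGG, which contain a CG, occurred on either strand 3 times in Glud1, 2 times in Nags, 1 time each in Ass1 and Glul, and not in Otc, while 35.7% of all windows held them. CCAAT occurred 2 times in Glul and in none of the other 4, against 37.4% of all windows. TATAAA was in none of the 5 windows, against 13.6% of all windows. CG content and level did not run in the same order, since Otc (10.3 TPM) stood above Nags (3.93 TPM).

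Levels are given as TPM, the share of a library's transcripts that fall on a gene after correction for length, on a fixed scale. Spike-in control RNAs held 14.6% of TPM in replicate 1 and 11.1% in replicate 2, which lowers the TPM of every gene more in replicate 1. Means carry the SD over the 2 libraries (n = 2). Gene positions are on GRCm38, with Asl and Arg1 on the minus strand and the other 7 on the plus strand. Cps1, the entry enzyme of the cycle, had the lowest mean of all 9. Cps1 (ENSMUSG00000025991.8, chromosome 1, 67123026 to 67231259) stood at 0.04 TPM (replicate 1) and 0.14 TPM (replicate 2), a mean of 0.0900 ± 0.0707 TPM. These values rest on 5 counts (exact Poisson interval 1.62 to 11.7) in replicate 1 and 17 counts (9.90 to 27.2) in replicate 2. Both counts were above the 3 counts that a count of 0 allows, so transcripts of this gene were measured, at a level above 28.9% of the 21474 protein-coding genes. Intervals and limits of this kind cover counting error only.

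Nags, which makes the activator of Cps1, was higher. It reached 3.87 TPM (replicate 1) and 3.99 TPM (replicate 2) (3.93 ± 0.0849 TPM; ENSMUSG00000048217.7, chromosome 11, 102145513 to 102149477), on 184 and 170 estimated counts. Otc, on the X chromosome (ENSMUSG00000031173.9, 10252305 to 10321024), reached 9.85 and 10.81 TPM in replicates 1 and 2 (10.3 ± 0.679 TPM). Each replicate thus put Otc and Nags above a TPM of 1, and Cps1 below it.

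The middle cytosolic steps were the most abundant of the cycle proper. Ass1 (ENSMUSG00000076441.5, chromosome 2, 31470207 to 31520672) stood at 49.65 TPM (replicate 1) and 58.19 TPM (replicate 2), a mean of 53.9 ± 6.04 TPM. Asl (ENSMUSG00000025533.11, chromosome 5, 130011258 to 130029247) stood at 40.51 and 45.36 TPM in replicates 1 and 2, a mean of 42.9 ± 3.43 TPM. Their levels were above 87.8% (Ass1) and 85.2% (Asl) of protein-coding genes. The last step was much lower: Arg1 (ENSMUSG00000019987.8, chromosome 10, 24915221 to 24927484) reached 3.52 TPM (replicate 1) and 3.87 TPM (replicate 2), a mean of 3.70 ± 0.248 TPM, on 125 and 120 counts.

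Arg2, the mitochondrial arginase, was near the limit of measurement. It stood at 0.06 TPM on 2.02 estimated counts (exact Poisson interval 0.249 to 7.26) in replicate 1 and at 0.37 TPM on 11.09 counts (5.55 to 19.8) in replicate 2. In replicate 1 this is under the 3 counts, or 0.0874 TPM, that a count of 0 allows. The gene (ENSMUSG00000021125.6, chromosome 12, 79130777 to 79156301) overlaps the end of Vti1b, a vesicle fusion gene on the other strand, by 285 bases. Vti1b had 1782 and 1666 counts in replicates 1 and 2. The labels do not state whether reads were counted by strand, so it is not known how well reads of these genes were separated in the overlap. The deposited posterior SD of the Arg2 count was 0.17 and 0.29 in replicates 1 and 2, which covers only the split made by the authors' model.

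Both enzymes that handle ammonia through glutamate exceeded every enzyme of the cycle on gene TPM, an order that Glul lost on other scales. Glud1 (ENSMUSG00000021794.11, chromosome 14, 34310727 to 34345265) was the highest member, at 151.72 TPM (replicate 1) and 150.81 TPM (replicate 2) (151 ± 0.644 TPM), on 12192 and 10580 counts. Glul (ENSMUSG00000026473.11, chromosome 1, 153899944 to 153909723) stood at 109.31 and 101.97 TPM in replicates 1 and 2 (106 ± 5.19 TPM). Glud1 ranked above 95.7% and Glul above 93.9% of protein-coding genes. Glud1 carried 40.7% and Glul 28.4% of the summed mean TPM of the members.

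**Figure D1:**
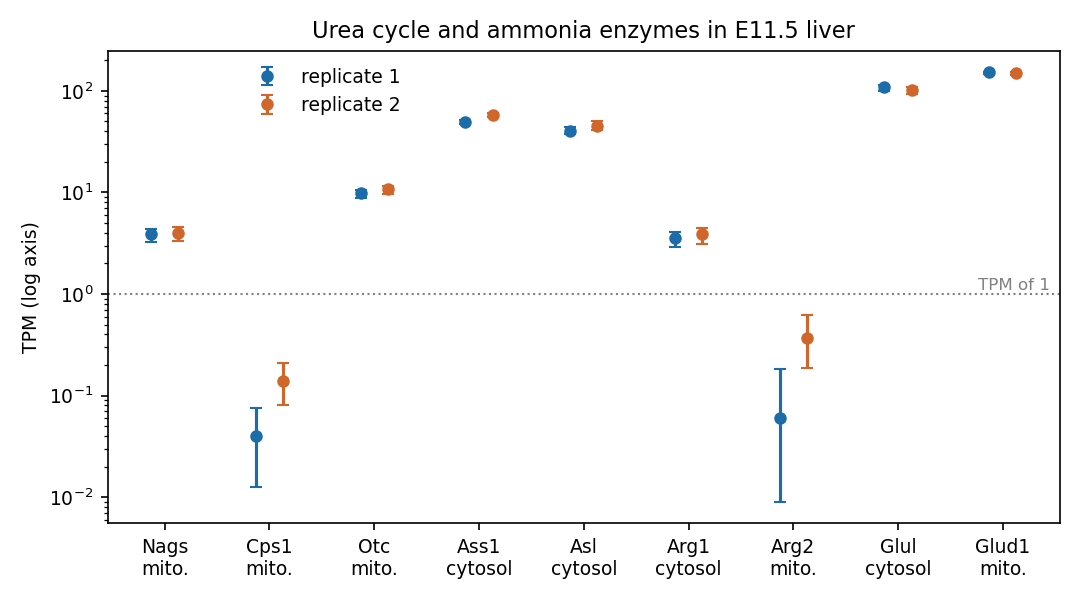
TPM of each of the 9 enzymes (log axis) in replicates 1 and 2, in pathway order with the compartment of the protein; bars are the deposited credibility intervals, whose level the files do not give. Cps1 and Arg2 sit under the dotted line at a TPM of 1 in both libraries, and the other 7 sit above it, from 3.52 TPM (Arg1) to 151.72 TPM (Glud1).

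Counted over the list, 7 of 9 enzymes reached a TPM of 1 in both libraries, against 56.6% of protein-coding genes (12165 of 21474), and 4 of 9 reached a TPM of 10, against 35.1%. The median of the 9 enzymes was 10.3 ± 0.679 TPM, against 2.85 ± 0.0354 TPM over all protein-coding genes and 16.7 ± 0.743 TPM over those that reached a TPM of 1. The 5 mitochondrial enzymes summed to 165.5 TPM (replicate 1) and 166.1 TPM (replicate 2), most of it Glud1. The 4 cytosolic enzymes summed to 203.0 and 209.4 TPM, of which Glul made up 109.31 and 101.97 TPM. Transcripts with a complete coding sequence held only 23.79 and 24.44 TPM of Glul. Which compartment had the higher sum therefore depends on how Glul is counted. Together the 9 enzymes made up 0.0431% of mouse gene TPM in replicate 1 and 0.0422% in replicate 2.

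Neighbours in the order of mean TPM were called separate when they kept their order in each library, had deposited intervals apart from each other, and had a log2 ratio beyond its change from library to library. By this rule 6 of the 8 neighbouring pairs were separate. How often neighbours in other sets of genes would be separate was not computed, so this count is a description only. The order ran from Glud1 through Glul, Ass1, Asl and Otc to Nags and Arg1, and then to Arg2 and Cps1. Nags and Arg1 did not differ beyond their spread (log2 ratio 0.09 ± 0.06), nor did Arg2 and Cps1 (0.58 ± 0.55). The widest steps were those from Arg1 to Arg2 (log2 ratio 3.79 ± 1.01) and from Asl to Otc (2.04 ± 0.02), and the narrowest separate one was from Ass1 to Asl (0.33 ± 0.05). The Arg1 over Arg2 ratio was 4.50 in replicate 1, where Arg2 was under the count limit, and 3.08 in replicate 2, and with a pseudocount of 1 TPM it was 1.96. Ratios between genes were taken on the log2(TPM + 0.1) scale, which understates folds against genes as low as Arg2 and Cps1.

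The level of Glul depended on which transcripts were counted. Glul-201, the only listed Glul transcript with a complete coding sequence in GENCODE M21 (2792 bases, 7 exons), had 23.79 TPM (replicate 1) and 24.44 TPM (replicate 2). The rest of the gene level came mainly from annotated coding transcripts of incomplete sequence. Glul-202, of 681 bases, had 47.82 TPM (replicate 1) and 55.53 TPM (replicate 2), and Glul-203, of 379 bases, had 37.00 and 21.75 TPM. By counts the picture was the other way round: Glul-201 held 62.5% of the estimated counts of Glul in replicate 1 and 63.1% in replicate 2, because TPM divides by length.

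Complete transcripts thus carried 21.8% and 24.0% of Glul TPM in replicates 1 and 2. Of the 7534 protein-coding genes that reached a TPM of 10 in each replicate, 4.45% were under 30% by this measure, and the median was 95.6% in replicate 1 and 96.0% in replicate 2. The limit of 30% was set after the Glul value was seen. Compared in windows of 50 bases, Glul-202 differs from Glul-201 only over its first 71 bases and Glul-203 over its first 29, and all their later windows lie within Glul-201. Reads from those later bases match several transcripts, and their split rests on the authors' model.

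On complete coding transcripts alone, Glul (24.1 ± 0.460 TPM) fell behind Ass1 (53.5 ± 6.31 TPM) and Asl (31.3 ± 2.75 TPM). Dividing all counts of a gene by the effective length of its transcript with most counts gave 38.1 and 38.7 TPM-equivalents for Glul in replicates 1 and 2. The same measure gave 49.2 and 58.0 for Ass1, and 36.7 and 39.2 for Asl. Glul was then below Ass1 in both libraries (log2 ratio -0.48 ± 0.15) and did not differ from Asl beyond the spread (0.02 ± 0.05). Glud1 stayed highest on all 3 scales, at 148 ± 0.523 TPM on complete transcripts, which put it 6.12-fold above Glul there and 1.43-fold above it on gene TPM. These other scales were chosen after the data were seen.

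**Figure D2:**
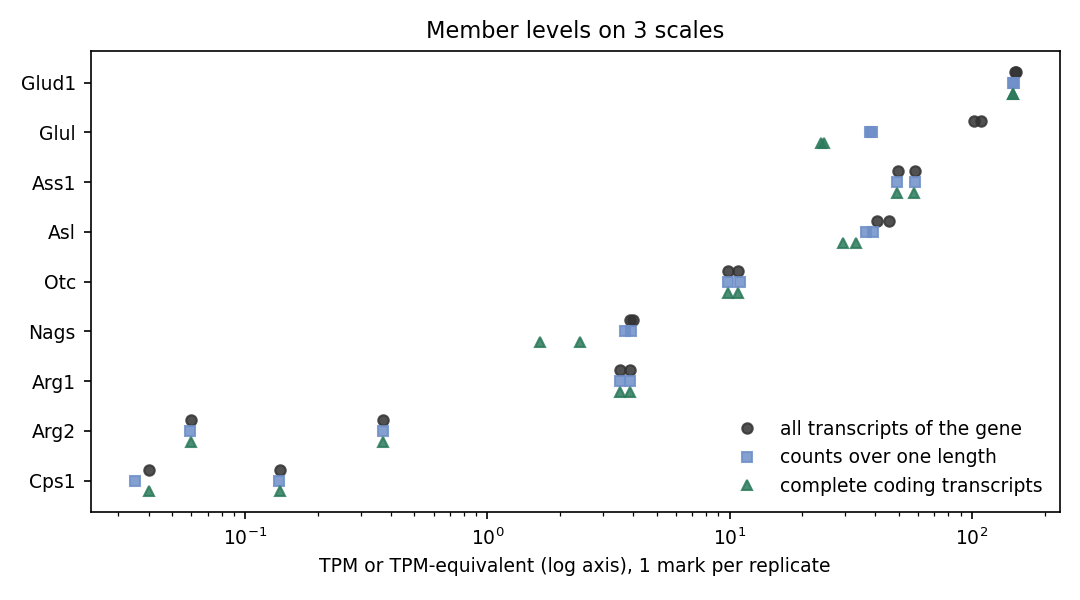
Level of each enzyme on 3 scales (log axis; TPM over all transcripts of the gene, counts over the length of the transcript with most counts, and TPM of complete coding transcripts), with 1 mark per replicate. Glul lies at 109.31 and 101.97 TPM on the gene scale and at 23.79 and 24.44 TPM on complete transcripts, and the marks of Glud1, Ass1, Otc and Arg1 nearly coincide.

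The other members differed in how their level was made up. Cps1, Arg1 and Arg2 each had 1 transcript in the tables. A single full-length transcript carried 97.8% and 97.9% of Glud1 TPM in replicates 1 and 2, and another carried 98.8% and 99.6% of Ass1 TPM. Asl was divided among several: Asl-205 carried 50.8% in replicate 1 and 38.4% in replicate 2, and Asl-202, also with a complete coding sequence, carried 31.2% and 26.2%. An Asl transcript that GENCODE M21 does not list had 0 counts in replicate 1 and 187 counts in replicate 2, with deposited intervals that overlapped (0.000228 to 3.94 TPM in replicate 1 and 0.307 to 9.49 TPM in replicate 2).

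The Nags level was shared between coding and non-coding transcripts. Nags-201, which encodes the enzyme, carried 62.3% of Nags TPM in replicate 1 and 41.2% in replicate 2, and the non-coding Nags-203 carried 33.9% and 44.4%. The leading transcript of Nags therefore differed between the libraries, the only member of which this was true, but the deposited intervals of the 2 transcripts overlapped in both libraries. On complete transcripts Nags was at 2.03 ± 0.537 TPM and Arg1 at 3.70 ± 0.248 TPM, with intervals that overlapped in replicate 1 (1.40 to 3.04 TPM for Nags, 2.87 to 4.07 TPM for Arg1).

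Of the 25 transcripts of the enzymes with a count in either library, 5 had deposited intervals that did not overlap between the libraries, against 8.11% of the 54620 such transcripts of protein-coding genes. All 5 were higher in replicate 2, the library with the smaller spike-in share, and these intervals do not cover variation from pool to pool. They were the single transcripts of Cps1 and Arg2, the main transcript of Ass1 (45.70 to 49.97 TPM in replicate 1, 53.90 to 58.79 TPM in replicate 2), and minor transcripts of Otc and Asl. Otc-202, an alternative form with a complete coding sequence and a different 3′ end, carried 1.44% of Otc TPM in replicate 1 and 7.56% in replicate 2, on 10.6 and 53.3 estimated counts. Its intervals were 0.0459 to 0.292 TPM in replicate 1 and 0.504 to 1.16 TPM in replicate 2. Asl-206, an incomplete transcript, had 0.57 TPM (0.0249 to 2.20) in replicate 1 and 5.92 TPM (2.85 to 9.90) in replicate 2.

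**Figure D3:**
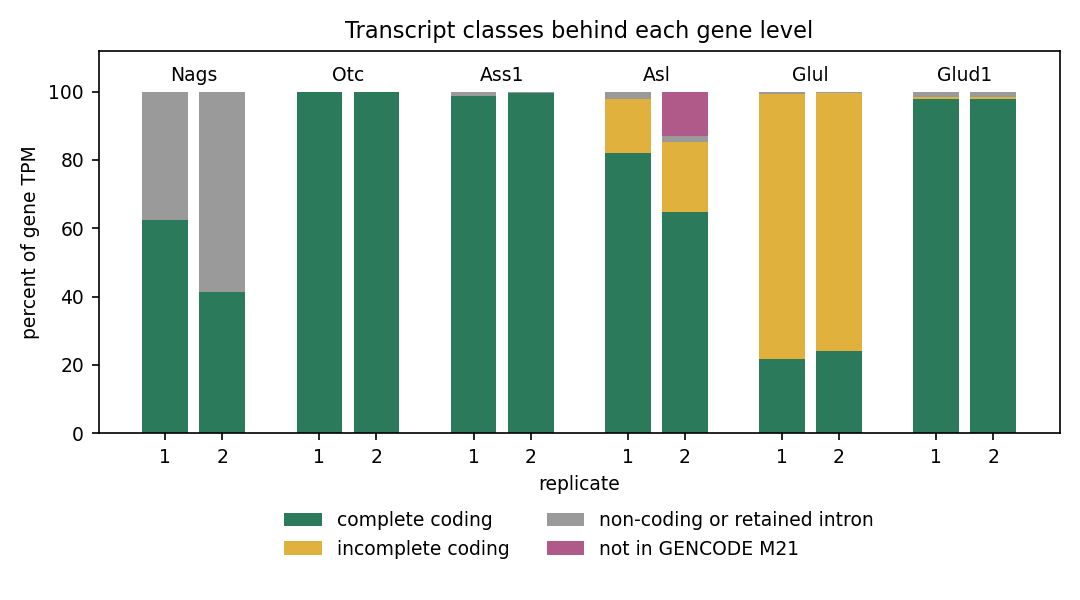
Percent of gene TPM on transcripts with a complete coding sequence, on incomplete coding transcripts, on non-coding or intron-retaining transcripts and on a transcript not in GENCODE M21, for the 6 enzymes with several transcripts, in replicates 1 and 2. Glul is mostly on incomplete transcripts, Nags is divided, and Otc, Ass1 and Glud1 are nearly all on complete ones.

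Some reads could match other genes as well. Of the 50-base windows of the main Ass1 transcript, 55.3% also occur in the processed pseudogene Gm5424 on chromosome 10, to which 24.5 counts in replicate 1 and 5.24 in replicate 2 were assigned, against 2029 and 2088 for Ass1. The deposited posterior SD of the Ass1 count was 6.20 and 3.51, which is small beside the count itself. Of the Glud1 windows, 8.17% were shared with Glud-ps and Gm43444, for which no entry was matched among the measured genes. The same held for Gm48780, which shared 4.1% of the Arg2 windows, and for AC134576.3, which shared 2.8% of the Glul windows. No counts of these genes can therefore be set beside those of the enzymes. Windows of the coding Nags transcript overlapped the antisense gene Gm11586 (20.0%), which had 3.63 and 6.34 counts in replicates 1 and 2. Windows of the full-length Glul transcript matched the pseudogene Glns-ps1 (11.3%), which had 2.14 and 6.44 counts. For the main transcripts of Cps1, Otc, Asl and Arg1 no window was shared with another gene of GENCODE M21.

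Ratios along the pathway were taken for 14 listed gene pairs, and all 14 were ordered by the rule above. The share of other gene pairs that would meet this rule was not computed. Otc stood above Cps1 by 5.83 ± 0.46 and Nags by 4.46 ± 0.52 on the log2 scale. Cps1 also stood far below Cad, the cytosolic enzyme that makes carbamoyl phosphate for pyrimidines, at a log2 ratio of -8.03 ± 0.41 (0.04 TPM for Cps1 and 44.58 TPM for Cad in replicate 1, 0.14 and 51.27 TPM in replicate 2). Ass1 exceeded Otc by 2.37 ± 0.07 and Asl exceeded Arg1 by 3.50 ± 0.02 on the same scale.

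At ornithine, Otc and Arg2 were set beside genes of higher level, and of these enzymes Arg2 is found mainly outside the cycle. Otc was below Oat, which sends ornithine to glutamate semialdehyde, at a log2 ratio of -3.66 ± 0.10 (Oat 132 ± 17.3 TPM). Arg2 was below Odc1, which turns ornithine into the polyamine putrescine, at -10.13 ± 0.93 (Odc1 307 ± 35.4 TPM). Of the mitochondrial carriers, Slc25a15, which brings ornithine in (28.0 ± 1.08 TPM), exceeded Slc25a2 by 6.56 ± 0.50 on the log2 scale. Slc25a2 rested on 9 counts in replicate 1 and 4 in replicate 2, and pseudocounts of 1 and 0.01 TPM put this ratio at 4.59 and 7.09. Slc25a13, the aspartate-glutamate carrier of liver, exceeded Slc25a12 by 0.38 ± 0.09 on the log2 scale of gene TPM and by 4.06 on complete coding transcripts.

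**Figure D4:**
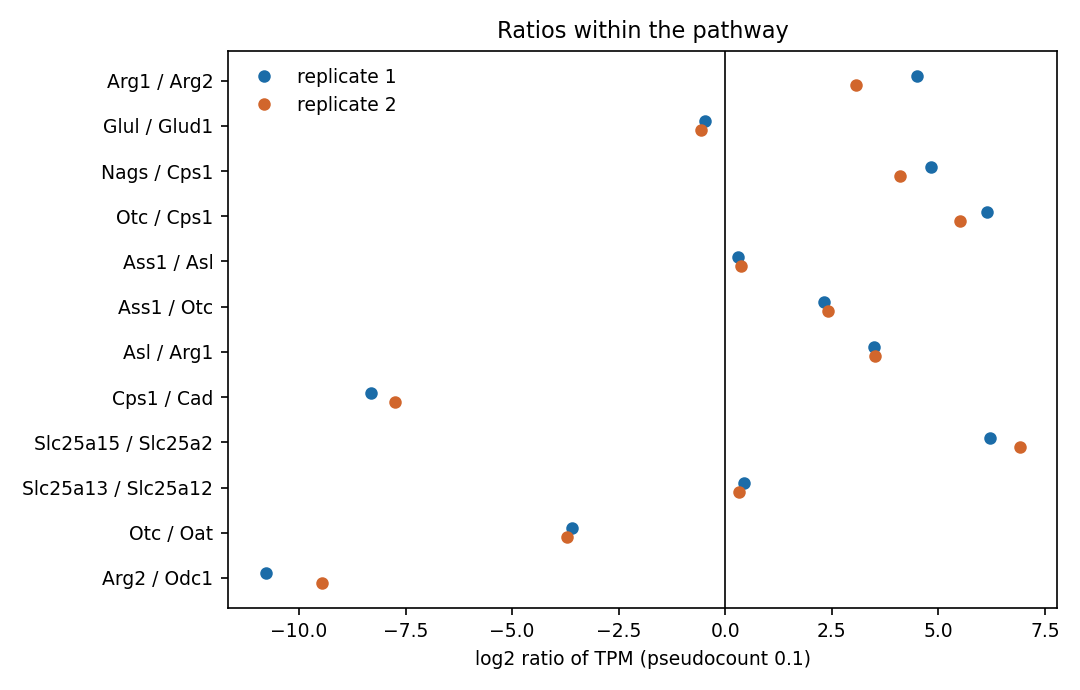
Log2 ratio of TPM (with a pseudocount of 0.1) for 12 of the 14 gene pairs, with 1 point per replicate and a line at 0. The replicates lie on the same side of 0 for every pair shown, from -10.13 (Arg2 over Odc1) to 6.56 (Slc25a15 over Slc25a2) on average.

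Between the pools the better measured enzymes were close. Counts were scaled with TMM factors, and the ratio runs replicate 1 over replicate 2. Across the 7 enzymes that averaged at least 100 counts, this log2 ratio lay between -0.14 (Ass1, binomial interval -0.23 to -0.05) and 0.10 (Glud1, 0.07 to 0.14). All 7 lay within the SD of 0.20 taken over the 11522 protein-coding genes of that depth, as did 78.4% of those genes. The 2 lowest enzymes differed more. Cps1 had 5 counts in replicate 1 and 17 in replicate 2 (log2 ratio -1.77, interval -3.66 to -0.37), and Arg2 had 2.02 and 11.09 (-2.30, interval -5.78 to -0.36). Cps1 was the only one of the 8 enzymes with a mean of 10 or more counts that was at least 2-fold lower in replicate 1. Of the 14418 protein-coding genes that passed this count limit, 1.1% were, but 11522 of them averaged at least 100 counts. That share therefore does not describe genes counted as thinly as Cps1. On deposited TPM with a pseudocount of 0.1, its log2 ratio was -0.78 and none of these 8 enzymes was 2-fold apart.

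Markers of the tissue stood beside these values. All 8 hepatoblast markers were above a TPM of 1 in both libraries, from Ahsg (62.6 ± 4.59 TPM) to Afp (5077 ± 537 TPM), so the defining markers of the labelled tissue were present. All 7 red cell markers (Epb42 51.8 to Klf1 377 TPM), 8 macrophage markers (Timd4 5.22 to C1qb 62.3 TPM), 6 neutrophil markers (Elane 9.56 to Mpo 156 TPM), 6 endothelial markers (Cdh5 13.8 to Oit3 34.9 TPM) and 6 mesenchymal markers (Des 10.9 to Col3a1 239 TPM) were detected too. The enzymes cannot be assigned to 1 of these cell types from whole tissue. The 6 heart muscle markers (Myh7 1.87 to Myl7 88.9 TPM) summed to 265 TPM (replicate 1) and 115 TPM (replicate 2), with all 6 higher in replicate 1, where Cps1 and Arg2 were lower, and their part in the difference of those enzymes was not tested. Neural markers summed to 31.4 and 32.4 TPM (Sox2 0.330 to Gap43 16.3 TPM), and 4 of 5 gut markers were under a TPM of 1 in both libraries (Cdx2 0.0650 TPM), the exception being the stomach mesenchyme factor Barx1 (17.1 ± 1.28 TPM).

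The genes around the cycle were read as 9 lists with 79 genes, of which 66 reached a TPM of 1 in both libraries, beside the 56.6% of protein-coding genes given above. All 7 genes of aspartate and malate supply were detected, led by Mdh2 (494 ± 23.7 TPM), Mdh1 (221 ± 9.54 TPM) and Got2 (119 ± 1.27 TPM), of which Got2 makes the aspartate that Ass1 consumes. The list median of 111 ± 9.06 TPM stood beside 10.3 ± 0.679 TPM for the 9 enzymes. Of the carriers and bicarbonate genes, 6 of 10 were detected, led by Slc25a13 (41.6 ± 5.98 TPM), Slc25a12 (32.0 ± 6.65 TPM) and Slc25a22 (28.1 ± 2.17 TPM). Car5a, the mitochondrial carbonic anhydrase that supplies bicarbonate to Cps1 in adult liver, stood at 0.42 TPM (replicate 1) and 0.53 TPM (replicate 2), and Car5b (0.135 ± 0.149 TPM), Slc25a2 (0.205 ± 0.0919 TPM) and Slc25a18 (0.0500 ± 0.0141 TPM) were also under a TPM of 1.

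Genes that use glutamine and ornithine for growth were all detected. The 10 genes of the glutamine list were led by Asns (419 ± 39.9 TPM), which makes asparagine, and by the CTP synthases Ctps (86.0 ± 10.8 TPM) and Ctps2 (64.8 ± 12.9 TPM). The 11 ornithine, proline and polyamine genes were led by Oaz1 (1583 ± 60.5 TPM), the inhibitor of Odc1, by Srm (408 ± 26.0 TPM), which makes spermidine, and by Odc1. Their medians were 48.5 ± 2.03 TPM for the glutamine genes and 105 ± 8.10 TPM for the ornithine genes.

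Of a list chosen under the heading of arginine users and importers, 7 of 9 genes were detected. Ddah2 (100.3 ± 0.233 TPM), the arginine importer Slc7a1 (42.1 ± 0.672 TPM) and Ddah1 (37.3 ± 0.255 TPM) were highest. A place on this list, as for Ddah1, Ddah2 or Agmat, does not mean that the enzyme uses free arginine. The nitric oxide synthases Nos2 (0.230 ± 0.0990 TPM) and Nos1 (3 counts in replicate 1 and 0 in replicate 2) were under a TPM of 1. Nos3, the other synthase of the list, was detected, at 5.47 TPM (replicate 1) and 5.12 TPM (replicate 2). Of the ammonia and glutamine transporters, 7 of 8 were detected. The highest was Rhag, the ammonia channel of the red cell membrane (135 ± 14.1 TPM), followed by the glutamine transporters Slc38a2 (85.9 ± 6.41 TPM) and Slc38a5 (63.5 ± 5.94 TPM), while Rhcg had 2 counts in each library.

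A list of amino acid breakdown enzymes, chosen under the heading of ammonia release, was the lowest of the related lists. A place on this list does not mean that the enzyme itself sets ammonia free. That was not tested for Aass or for the other enzymes of the list. Of 7, 3 were detected, Aass (19.0 ± 3.40 TPM) of lysine breakdown and the glycine cleavage genes Gldc (18.2 ± 2.15 TPM) and Amt (12.8 ± 0.721 TPM). Aspg (0.235 ± 0.0636 TPM) and Dao (0.120 ± 0.0990 TPM) were under a TPM of 1, and Sds, serine dehydratase, had 0 counts throughout, a result that leaves room for 0.189 TPM (replicate 1) or 0.217 TPM (replicate 2). The list median was 0.960 ± 0.0707 TPM.

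Regulators and zone markers were mostly present at modest levels. All 9 genes of the hepatocyte regulator list, transcription factors and the glucagon receptor Gcgr, were detected, led by Foxa3 (24.4 ± 2.16 TPM), the glucocorticoid receptor Nr3c1 (19.9 ± 2.19 TPM) and Hnf4a (15.2 ± 1.16 TPM). Of 8 genes that mark the WNT-dependent zone around the central vein in the adult, 6 were detected, led by Lect2 (24.9 ± 2.43 TPM), Tbx3 (16.3 ± 0.262 TPM) and Rnf43 (7.14 ± 0.615 TPM). Cyp2e1 had 7 counts in replicate 1 and 1 in replicate 2, and Cyp1a2 had 0 in each, where the count limit is 0.0648 TPM (replicate 1) and 0.0743 TPM (replicate 2).

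**Figure D5:**
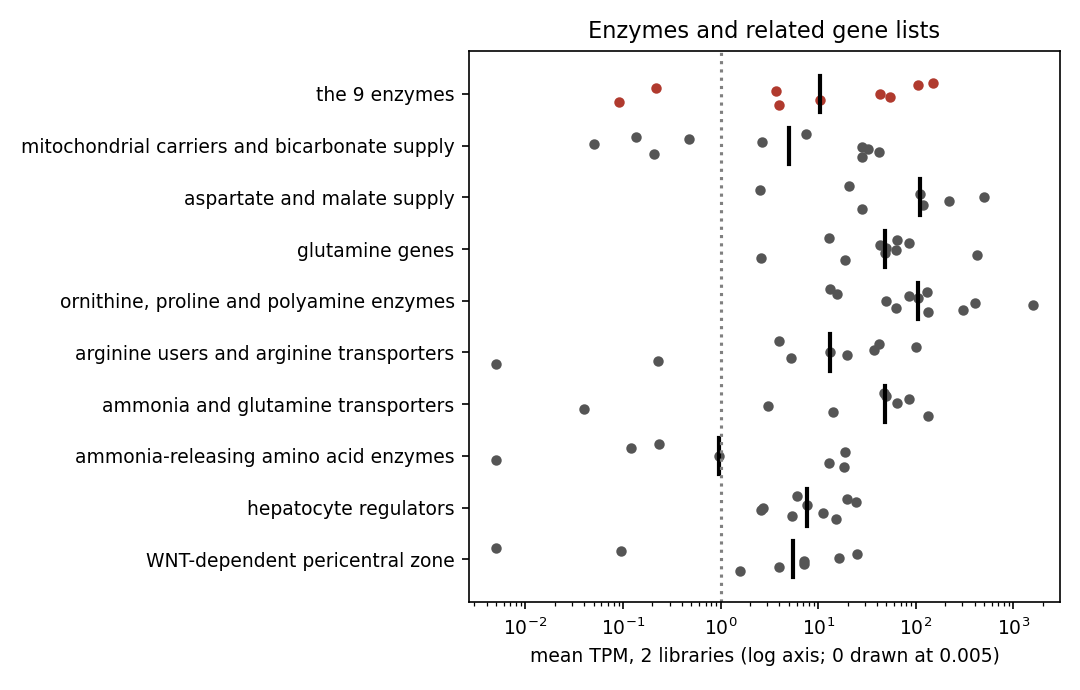
Mean TPM (log axis, 0 drawn at 0.005) of each gene of the 9 enzymes (red) and of 9 related lists (grey), with list medians as black bars and a dotted line at a TPM of 1. The enzymes spread from 0.0900 TPM (Cps1) to 151 TPM (Glud1), while the lists of aspartate supply, glutamine use, polyamine synthesis and hepatocyte regulators lie wholly above the line.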

How the data were processed

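Total RNA of 2 pooled liver samples was measured, extracted with mirVana and prepared, per the labels, by a protocol document named for Smart-seq. Reads were assigned on mm10, per the labels, with GENCODE M4 per the notes beside the tables; no source used here names the aligner, the quantifier, their versions or the strand. The authors deposited, for each library on its own, estimated counts, TPM with bounds of a credibility interval, and the percent of a gene's TPM on each transcript. Estimated counts summed to 34344230 (replicate 1) and 31477397 (replicate 2), with 31721267 and 29750192 on mouse genes. The labels give the replicates as biological. Symbols, coordinates and transcript classes came from GENCODE M21 on GRCm38 (the same assembly), by identifier without version, and 42462 of 43346 genes matched.

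Counts were rounded and scaled by edgeR 4.0.16 (TMM over genes with a CPM of at least 1 in each library), with DESeq2 1.42.0 size factors as an alternative. Spike-ins and numbered features were left out, and 0.5 counts were added before ratios. Intervals are 95% exact Poisson or binomial. The members and lists were chosen with earlier results of these data known. The genes named were all members and pair genes, and the 3 highest of each list with those under a TPM of 1. The highest and lowest of each marker list were also named, and Nos3 was added beside the other nitric oxide synthases. With 2 libraries of 1 group, no likeness of pattern could be computed. Protein sequences were not used here. The results of 2 of the 14 pairs are not reported here. Other steps ran in Python 3.11.15 (pandas 2.3.3, scipy 1.17.1).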

Additional observations from a re-analysis of the deposited data

How the results depend on the processing

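Of the counts that were rerun, all but 1 stayed within 1.5 times under every alternative run. The exception was the number of enzymes at least 2-fold lower in replicate 1, which was 1 (Cps1) on scaled counts and 0 on deposited TPM. The limit of 1.5 times is wide, since it allowed detected enzymes to fall from 7 to 5 at a TPM of 5. The counts of enzymes at a TPM of 10 and of transcripts with intervals apart were not rerun. Glul over Ass1 reversed: the log2 ratio was 0.97 on gene TPM, -1.14 on complete coding transcripts and -0.475 on counts over 1 length, both scales chosen after the data were seen, and the scales differ by construction in the transcripts and lengths that enter. Leaving out a replicate is no check here, since a detected enzyme or an ordered pair had to pass in each library; it put Arg1 over Arg2 at 3.08 or 4.50 and Arg2 over Odc1 at -9.47 or -10.79. Complete coding transcripts put Slc25a13 over Slc25a12 at 4.06, against 0.38 on gene TPM, and Otc over Nags at 2.31, against 1.37; the cause was not tested. Pseudocounts of 1 and 0.01 TPM put Cps1 over Cad at -5.49 and -9.11, Otc over Cps1 at 3.38 and 6.90, and Nags over Cps1 at 2.18 and 5.51. No paired analysis was possible because there was a single group. Depth limits Cps1 and Arg2, whose levels rest on 17 counts or fewer, and levels of 2 pools hold for these pools. The design had planned a protein comparison, which was not run.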

Other observations

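The starts of Asl and of Crcp, which encodes a subunit of RNA polymerase III, lie 42 bases apart on opposite strands. Asl had 40.51 TPM (replicate 1) and 45.36 TPM (replicate 2), and Crcp had 23.29 and 27.96 TPM. The start of Glud1 lies 233 bases from that of Shld2, on the other strand. Glud1 had 151.72 and 150.81 TPM, against 5.28 and 7.60 TPM for Shld2. These neighbours were looked up after the values of the enzymes were seen.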
